A study of Mus musculus with 12 samples.

Results

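Sialyltransferases are the Golgi enzymes that place sialic acid on the ends of glycan chains. The 8 genes described here are St3gal1, St3gal2, St3gal3, St3gal4, St3gal5, St3gal6, St6gal1 and St8sia4, out of 46262 genes in the table of transcript levels. They were chosen by name, from levels and group differences already seen in these same libraries, with St3gal5 in view above all, so their own values are given as descriptions. How many of them passed the threshold of the fit of all genes is printed once, beside the share of all genes that did, and supports nothing. All 8 passed the filter on low values (at least 1 TPM in at least 3 libraries), which 12419 genes passed.

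The libraries came from primary microglia, the resident macrophages of the brain, of wild-type (WT) mice, separated from mixed glial cultures. The deposited table calls the microglia of all groups neonatal, and the labels give no age. There were 4 groups of 3 libraries: cerebellar microglia under IL-34, cerebellar microglia under CSF-1, forebrain microglia under IL-34 and forebrain microglia under CSF-1. IL-34 was given at 100 ng/ml and CSF-1 at 20 ng/ml, each for 24 hours, and the 3 libraries of a group came from independent cultures per the series' design text. Both ligands act through the receptor CSF1R. No group without a ligand was analysed here and the doses differed, so each ligand difference is between these conditions, not between equal amounts of ligand. Cultured microglia are a model without the neurons of the tissue. Levels are in TPM, a unit that divides reads by transcript length and scales each library to the same total, and so can be compared between genes. Depth is unknown from such values, and precision rests on the spread between the 3 libraries.

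The enzymes differ in the linkage they make and the chain they extend. ST3GAL5 adds sialic acid to lactosylceramide and makes GM3, the simplest ganglioside and the starting point for most others. The remaining ST3GAL enzymes make the same alpha-2,3 linkage on other chains: ST3GAL1 and ST3GAL2 on Gal-GalNAc ends of O-glycans and gangliosides, and ST3GAL3, ST3GAL4 and ST3GAL6 mainly on Gal-GlcNAc ends of glycoproteins. ST6GAL1 makes the alpha-2,6 linkage of N-glycans, the ligand of CD22, and ST8SIA4 is a polysialyltransferase that strings sialic acids into polysialic acid. Sialic acids at the cell surface are read by Siglec receptors, several of which microglia carry.

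The bases just before a gene's start are shown for St3gal5, on which the results turn, and for St3gal6, whose TPM came from transcripts with 2 different starts. The windows are from RefSeq on GRCm38.p6, each the 250 bases before an annotated start, printed 5′ to 3′ on the gene's own strand. Capitals mark the GC box GGGCGG on either strand, a motif bound by SP-family factors. The St3gal5 window is chr6:72097358-72097607 on the plus strand, and the GENCODE start of its leading transcript, at 72097592, lies within its 3′ end. The St3gal6 windows are chr16:58523427-58523676 and chr16:58524254-58524503 on the minus strand.
St3gal5: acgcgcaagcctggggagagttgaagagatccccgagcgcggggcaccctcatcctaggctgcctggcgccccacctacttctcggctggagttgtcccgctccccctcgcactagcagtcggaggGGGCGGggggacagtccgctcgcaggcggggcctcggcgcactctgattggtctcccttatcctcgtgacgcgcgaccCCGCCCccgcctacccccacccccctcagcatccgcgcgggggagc
St3gal6, inner start: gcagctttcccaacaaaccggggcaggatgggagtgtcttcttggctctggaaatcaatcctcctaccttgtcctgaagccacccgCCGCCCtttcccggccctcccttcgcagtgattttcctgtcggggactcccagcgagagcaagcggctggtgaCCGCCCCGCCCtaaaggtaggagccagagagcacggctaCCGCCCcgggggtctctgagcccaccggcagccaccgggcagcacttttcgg
St3gal6, outer start: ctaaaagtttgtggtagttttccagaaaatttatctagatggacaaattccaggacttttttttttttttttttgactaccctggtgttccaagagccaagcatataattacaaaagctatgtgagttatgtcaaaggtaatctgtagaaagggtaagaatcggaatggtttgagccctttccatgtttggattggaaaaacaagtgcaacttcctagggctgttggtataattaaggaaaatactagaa
The St3gal5 window was 71.6% G and C with 25 CpG pairs and 2 GC boxes. The inner St3gal6 window was 64.4% G and C with 16 CpG pairs and 4 GC boxes, some of which overlap. The outer St3gal6 window was 34.8% G and C with 1 CpG pair and no GC box. Over all 32851 promoters of the table the median was 52.4% G and C with 6 CpG pairs, and 32.7% held the GC box. TATAAA, searched on both strands, was in none of the 3 windows and in 12.4% of all promoters. GGAAGT, the core of ETS-family motifs, was found on either strand in the outer St3gal6 window and in 19.7% of all promoters. These are matches of letters in a window, not sites shown to be bound. The table held a promoter for 6 of the 8 genes, with none for St3gal1 or St3gal2.

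St3gal5 was by far the most abundant of the 8 and had the widest spread between groups. Its level was 86.8, 81.8 and 94.8 TPM in cerebellar microglia under IL-34 and 137, 135 and 137 TPM in cerebellar microglia under CSF-1. In forebrain microglia it was 159, 134 and 148 TPM under IL-34 and 219, 212 and 217 TPM under CSF-1. Every IL-34 library lay below every CSF-1 library of its region, and every cerebellar library lay below every forebrain library under the same ligand. The cerebellar CSF-1 libraries and the forebrain IL-34 libraries overlapped, so the order of the groups was cerebellum IL-34, then these 2 groups with no gap between them, then forebrain CSF-1.

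The group means of St3gal5 were 87.8 ± 6.55 TPM in cerebellum under IL-34 and 136 ± 1.06 TPM in cerebellum under CSF-1 (SD, n = 3 each). They were 147 ± 12.5 TPM in forebrain under IL-34 and 216 ± 3.58 TPM in forebrain under CSF-1. The IL-34 mean was 0.644 times the CSF-1 mean in cerebellum and 0.681 times in forebrain. The cerebellar mean was 0.596 times the forebrain mean under IL-34 and 0.630 times under CSF-1. On the log2(TPM + 1) scale the ligand difference, IL-34 minus CSF-1, was -0.63 ± 0.067 in cerebellum and -0.55 ± 0.067 in forebrain (SE from the limma fit of all genes). The region difference, cerebellum minus forebrain, was -0.74 ± 0.067 under IL-34 and -0.66 ± 0.067 under CSF-1. The region-by-ligand difference, the cerebellar ligand difference minus the forebrain one, was -0.08 ± 0.095, smaller than its SE. Reading the most abundant transcript of each gene alone turned the sign of that last value, to 0.02.

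**Figure D1:**
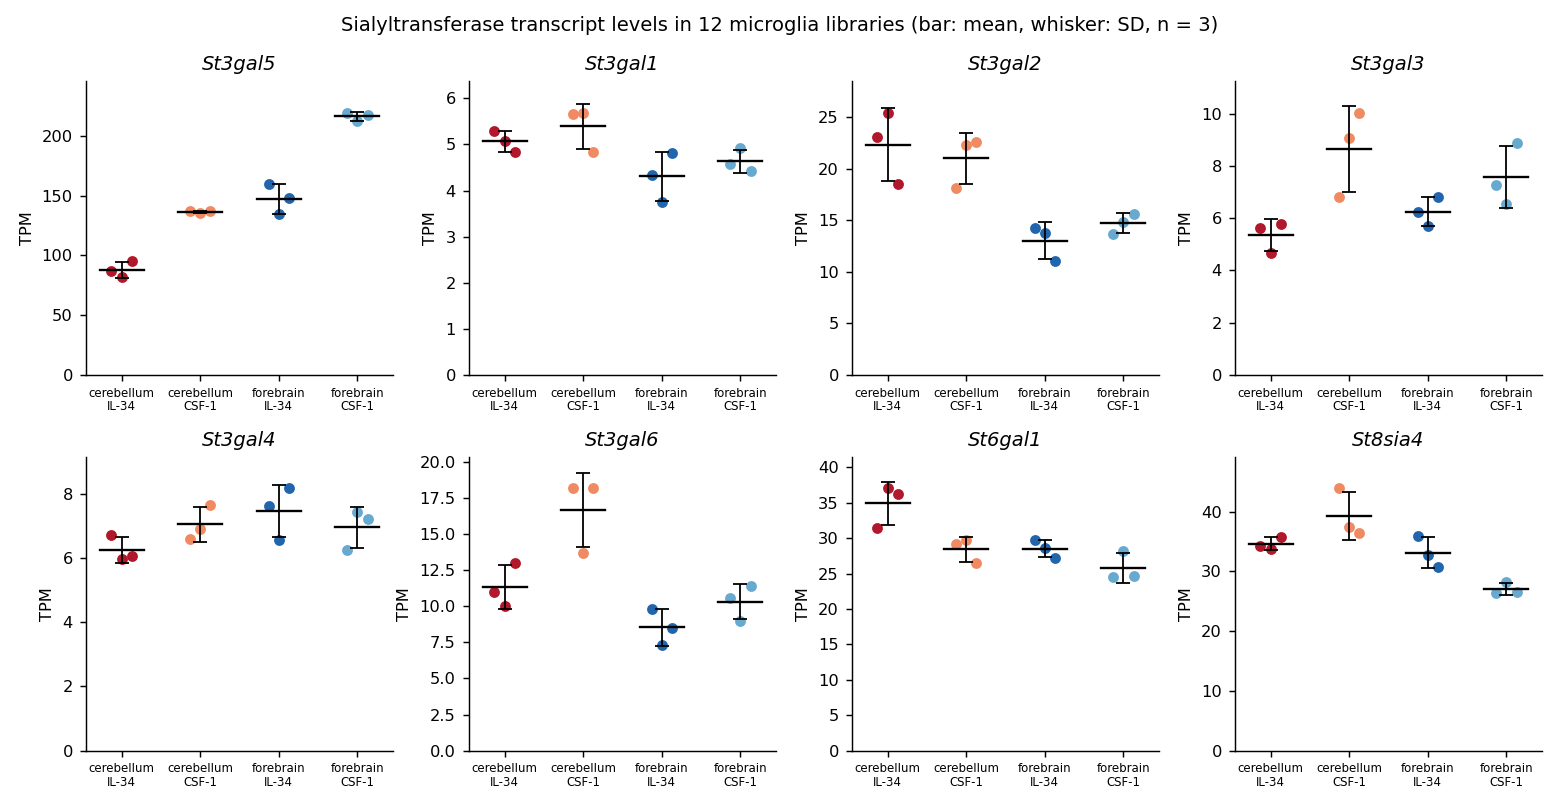
Level in TPM of each of the 8 sialyltransferase genes in the 12 libraries, by region and ligand. Points are libraries, bars are group means and whiskers are SD (n = 3); each panel has its own axis starting at 0. St3gal5 runs between 81.8 and 219 TPM and separates both ligands and both regions, while the other 7 genes stay under 44 TPM.

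Among 12419 tested genes St3gal5 ranked 1093 by mean level over the 12 libraries, with 147 TPM. The next of the 8 by that mean were St8sia4 at 33.5 TPM, rank 4553, and St6gal1 at 29.4 TPM, rank 4960. St3gal2 followed at 17.8 TPM and St3gal6 at 11.7 TPM. St3gal3 averaged 6.96 TPM, St3gal4 6.93 TPM and St3gal1 4.85 TPM, and the first 2 of these changed places between groups. The places of St3gal5 (1), St3gal2 (4), St3gal6 (5) and St3gal1 (8) were the same in all 4 groups. With the most abundant transcript alone, 6 of the 8 genes changed place in cerebellum under IL-34, 2 in cerebellum under CSF-1, 3 in forebrain under IL-34 and 4 in forebrain under CSF-1.

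St3gal5 held a different part of the summed TPM of the 8 genes in each group. Its share was 42.3% ± 1.98 in cerebellum under IL-34 and 51.9% ± 0.259 in cerebellum under CSF-1 (SD, n = 3 each). In forebrain it was 59.2% ± 1.37 under IL-34 and 69.0% ± 1.03 under CSF-1. No library of one group overlapped another group in this share. The other 7 genes together summed to 120 ± 2.31 TPM in cerebellum under IL-34 and 126 ± 1.84 TPM in cerebellum under CSF-1. In forebrain they summed to 101 ± 5.78 TPM under IL-34 and 97.0 ± 3.31 TPM under CSF-1. The sum without St3gal5 was therefore higher in cerebellum than in forebrain, opposite in direction to St3gal5 itself.

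St3gal5 is encoded on chromosome 6 (GRCm38, chr6:72097592-72154571, plus strand), and nearly all of its TPM fell on 2 of its 4 annotated transcripts. ENSMUST00000069994 has a reading frame of 414 codons that begins at 72097704, close to its start. ENSMUST00000114112 starts nearby but its frame of 387 codons begins at 72128266, farther along the gene. Both are coding transcripts of 7 exons. The first held 65.2% ± 5.29 of the gene's TPM in cerebellum under IL-34 and 65.7% ± 8.54 in cerebellum under CSF-1 (SD, n = 3 each). In forebrain it held 59.9% ± 4.44 under IL-34 and 64.2% ± 3.76 under CSF-1. The shares overlapped between groups, from 55.8% to 72.5% over the 12 libraries. Levels of the 414-codon transcript averaged 57.0 TPM in cerebellum under IL-34 and 89.5 TPM under CSF-1, and 88.4 TPM in forebrain under IL-34 and 139 TPM under CSF-1. The 387-codon transcript averaged 30.3 TPM in cerebellum under IL-34 and 46.8 TPM under CSF-1, and 58.9 TPM in forebrain under IL-34 and 77.5 TPM under CSF-1. Both transcripts had the order of group means with cerebellum IL-34 at the bottom and forebrain CSF-1 at the top. The division between transcripts that share most of their sequence is an estimate of the authors' quantification.

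**Figure D2:**
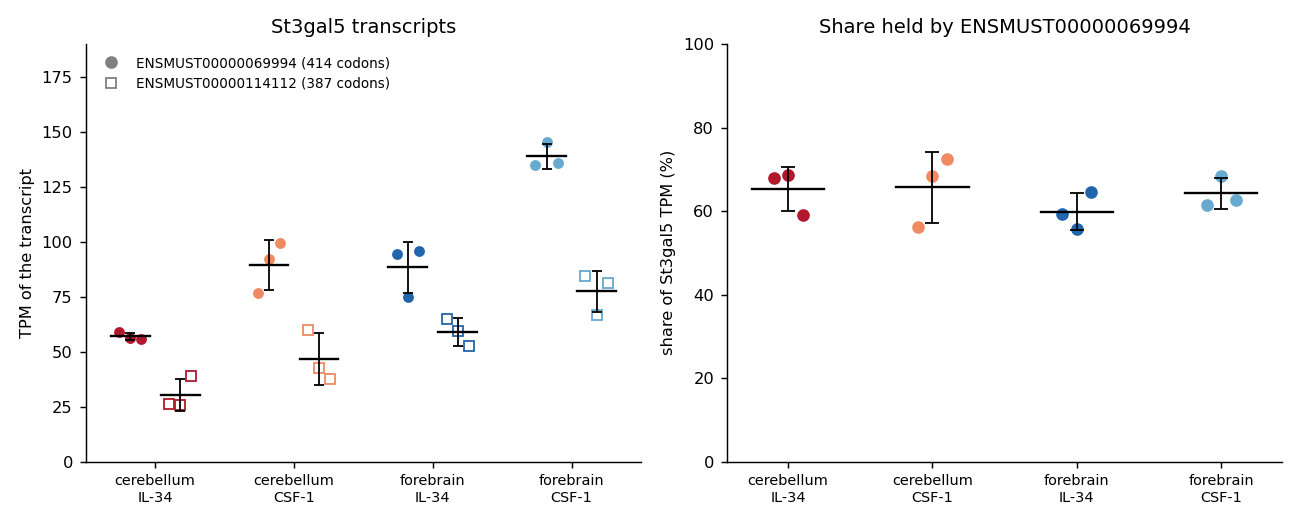
Left, TPM of the 2 main St3gal5 transcripts by group; right, the percent of the gene's TPM held by the 414-codon transcript. Points are libraries, bars are means and whiskers are SD (n = 3). Both transcripts are lowest in cerebellum under IL-34 and highest in forebrain under CSF-1, while the share stays between 55.8% and 72.5%.

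St3gal2, which sialylates O-glycans and the ends of complex gangliosides, was higher in cerebellum. It was 23.0, 25.4 and 18.5 TPM in cerebellar microglia under IL-34, against 14.3, 13.8 and 11.01 TPM in forebrain microglia under IL-34. Under CSF-1 it was 18.1, 22.3 and 22.6 TPM in cerebellum and 13.7, 14.8 and 15.6 TPM in forebrain. The regions did not overlap under either ligand, and the ligands overlapped within both regions. The region difference was 0.73 ± 0.13 under IL-34 and 0.48 ± 0.13 under CSF-1 (log2, SE).

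Part of that difference lay in a short non-coding transcript. ENSMUST00000129639, of 581 bases, held 6.59, 6.19 and 1.88 TPM in cerebellum under IL-34 and 0, 3.43 and 5.46 TPM in cerebellum under CSF-1. It was listed at 0 in all 6 forebrain libraries. With transcripts of 1000 bases or more alone, the region difference of St3gal2 was 0.32 under IL-34 and 0.28 under CSF-1, and the cerebellar ligand difference turned to -0.13 (0.08 ± 0.13 with all transcripts). With trends of length and base composition removed as well, the region difference was 0.26 under IL-34 and 0.17 under CSF-1. The libraries themselves differed in short transcripts: those under 600 bases held 2.58%, 3.31% and 0.947% of TPM in cerebellum under IL-34, and at most 0.555% in any other library. The part of this in the St3gal2 values was not tested beyond leaving short transcripts out. The main coding transcript ENSMUST00000034197, of 350 codons, averaged 14.5 TPM in cerebellum under IL-34 and 11.7 TPM in forebrain under IL-34. Under CSF-1 it averaged 16.4 TPM in cerebellum and 12.6 TPM in forebrain.

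St3gal6, an enzyme of Gal-GlcNAc ends known for its part in selectin ligands, had its highest values in cerebellum under CSF-1. It was 10.97, 10.02 and 13.01 TPM in cerebellum under IL-34 and 18.2, 13.7 and 18.2 TPM in cerebellum under CSF-1. In forebrain it was 9.81, 7.29 and 8.53 TPM under IL-34 and 10.6, 8.99 and 11.4 TPM under CSF-1. The cerebellar ligand groups did not overlap with all transcripts summed, the forebrain ligand groups did, and cerebellum lay above forebrain under both ligands. The cerebellar gap depended on ENSMUST00000135721, a 600-base transcript with a retained intron, at 0, 1.72 and 2.70 TPM under CSF-1. It was listed at 0 in every cerebellar IL-34 library, and without it the cerebellar groups overlapped. The ligand difference was -0.52 ± 0.14 in cerebellum and -0.25 ± 0.14 in forebrain. The region difference was 0.37 ± 0.14 under IL-34 and 0.64 ± 0.14 under CSF-1. With transcripts of 1000 bases or more alone and smooth trends of length and base composition removed, the cerebellar ligand difference was -0.26. The region difference under IL-34 was then 0.60.

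The transcripts of St3gal6 that begin at the outer start, at 58524185 and 58524243, were the main ones. ENSMUST00000114357 held 51.9% of the gene's TPM in cerebellum under IL-34, 55.2% in cerebellum under CSF-1, 53.8% in forebrain under IL-34 and 52.7% in forebrain under CSF-1. ENSMUST00000137035, which begins at the inner start at 58523426 beside the window with 4 GC boxes, held 13.2%, 11.1%, 11.5% and 8.91% in the same order of groups. All 3 main transcripts have the same frame of 329 codons. The start richer in GC was thus the lesser source of St3gal6 TPM in each group.

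St3gal3, St3gal4 and St3gal1 were the low members. St3gal3 was 5.64, 4.66 and 5.79 TPM in cerebellum under IL-34 and 6.83, 9.06 and 10.05 TPM in cerebellum under CSF-1, without overlap. In forebrain it was 6.24, 5.71 and 6.80 TPM under IL-34 and 7.29, 6.55 and 8.90 TPM under CSF-1, with overlap. Its ligand difference was -0.59 ± 0.15 in cerebellum and -0.24 ± 0.15 in forebrain. With transcripts of 1000 bases or more alone these were -0.36 and -0.00236, and with the most abundant transcript alone the forebrain value was 0.21. St3gal4 ranged from 5.97 to 6.71 TPM in cerebellum under IL-34 and from 6.59 to 7.65 TPM in cerebellum under CSF-1. It ranged from 6.58 to 8.18 TPM in forebrain under IL-34 and from 6.25 to 7.43 TPM in forebrain under CSF-1. St3gal4 overlapped in all 4 comparisons. St3gal1 ranged from 4.84 to 5.28 TPM in cerebellum and from 3.76 to 4.81 TPM in forebrain under IL-34. Under CSF-1 it ranged from 4.83 to 5.69 TPM in cerebellum and from 4.43 to 4.92 TPM in forebrain. Only under IL-34 did its regions not overlap, by a narrow gap.

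St6gal1 was the only member whose mean was higher under IL-34 in both regions. It was 31.5, 37.0 and 36.3 TPM in cerebellum under IL-34 and 29.1, 29.7 and 26.4 TPM in cerebellum under CSF-1. In forebrain it was 29.7, 28.6 and 27.3 TPM under IL-34 and 24.5, 28.2 and 24.6 TPM under CSF-1. The ligands were separate in cerebellum and overlapped in forebrain. The ligand difference was 0.29 ± 0.083 in cerebellum and 0.14 ± 0.083 in forebrain. With the most abundant transcript alone the cerebellar value was 0.11, and under median-of-ratios scaling it was 0.40. With transcripts of 1000 bases or more alone and trends removed it was 0.44. ENSMUST00000023601, which starts at 23224740, and ENSMUST00000178797, which starts at 23226021, encode the same 403 codons and together held most of the TPM. The first held from 37.0% to 74.6% over the 12 libraries, so its share varied widely within groups.

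St8sia4 went in opposite directions by region. It was 34.2, 33.7 and 35.8 TPM in cerebellum under IL-34, below the 43.9, 37.4 and 36.4 TPM in cerebellum under CSF-1. In forebrain it was 35.9, 32.8 and 30.8 TPM under IL-34, above the 26.4, 28.2 and 26.6 TPM under CSF-1. Neither pair overlapped, although the gap in cerebellum was narrow. The ligand difference was -0.17 ± 0.081 in cerebellum and 0.28 ± 0.081 in forebrain, and the region-by-ligand difference was -0.45 ± 0.11. With trends of length and base composition removed the region-by-ligand difference was -0.24 and the cerebellar value 0.04. The cerebellar value was -0.06 under median-of-ratios scaling, while the forebrain value stayed between 0.27 and 0.33 in the alternatives that kept all libraries. The region difference was 0.51 ± 0.081 under CSF-1 and 0.06 ± 0.081 under IL-34. ENSMUST00000043336, of 359 codons, held from 97.2% to 99.2% of St8sia4 TPM in every library.

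**Figure D3:**
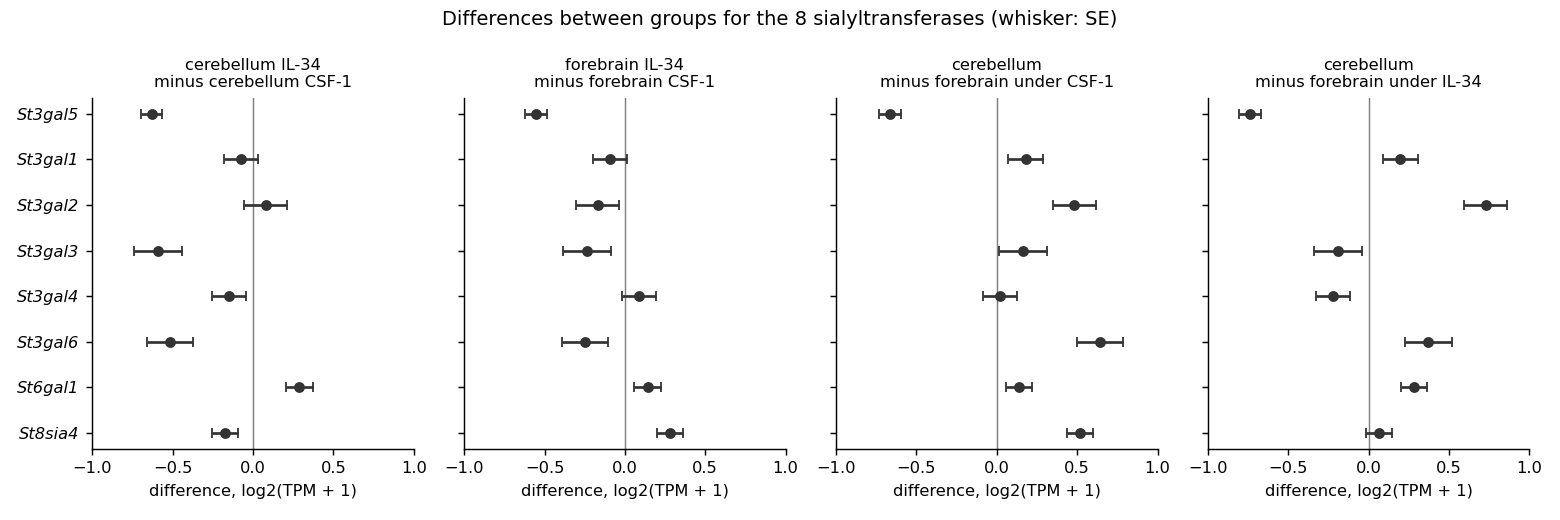
Log2(TPM + 1) differences of the 8 genes in the 4 comparisons, ligand first and region after. Points are differences and whiskers are SE from the fit of all genes. St3gal5 is below 0 in all 4 panels, and St8sia4 is at -0.17 in cerebellum and 0.28 in forebrain between ligands.

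Set against all genes, the separation of groups was common in these data. Between ligands in cerebellum, 5 of the 8 genes did not overlap (St6gal1 higher, and St3gal3, St3gal5, St3gal6 and St8sia4 lower), against 36.2% of all tested genes. That of St3gal6 depended on a short transcript with a retained intron. Between ligands in forebrain, 2 of 8 did not overlap (St8sia4 higher, St3gal5 lower), against 18.5%. Between regions under CSF-1, 4 of 8 did not overlap (St3gal2, St3gal6 and St8sia4 higher, St3gal5 lower), against 29.4%. Between regions under IL-34, 5 of 8 did not overlap (St3gal1, St3gal2, St3gal6 and St6gal1 higher, St3gal5 lower), against 32.9%.

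In the limma fit of all genes (Benjamini-Hochberg adjusted p under 0.05), the mean ligand difference over both regions passed for 4 of the 8 genes, 1 higher under IL-34 and 3 lower. Of all tested genes 13.4% passed, 2.73% higher and 10.7% lower. Under median-of-ratios scaling the split of all genes was 709 higher and 614 lower, against 339 and 1328 as deposited. The mean region difference over both ligands passed for 5 of 8, 4 higher in cerebellum and 1 lower, against 20.1% of all genes, 9.58% higher and 10.6% lower. The region-by-ligand difference passed for 0 of 8 and for 0.145% of all genes, 18 in number, with 1505 genes at an unadjusted p under 0.05. Since these contrasts helped choose the 8 genes, nothing is read from the counts.

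Markers of other cells differed with region. The 8 microglia markers summed to between 4876 and 5602 TPM in every group. The 8 astrocyte markers summed to between 15.1 and 20.0 TPM in the cerebellar libraries and between 30.4 and 33.5 TPM in the forebrain libraries. The 8 oligodendrocyte lineage markers summed to between 74.9 and 99.8 TPM in cerebellum and between 58.0 and 72.7 TPM in forebrain, most of it Mbp. Of the 5 border macrophage markers 3 reached 1 TPM, and the list summed to between 113 and 161 TPM in cerebellum under IL-34, 36.8 and 120 TPM in cerebellum under CSF-1, 65.2 and 107 TPM in forebrain under IL-34, and 65.4 and 114 TPM in forebrain under CSF-1. F13a1 of that list averaged 5.29 TPM in cerebellum and 26.3 TPM in forebrain under IL-34, and 6.19 TPM in cerebellum and 28.7 TPM in forebrain under CSF-1. Mrc1 was lower in cerebellum as well, and Pf4 alone of the list was higher there. Pf4 averaged 106 TPM in cerebellum and 17.3 TPM in forebrain under IL-34, and 41.8 and 22.7 TPM under CSF-1. Cerebellum under IL-34 also held the largest share of TPM in transcripts under 600 bases. The part of that in the Pf4 values was not tested. The endothelial gene Cldn5 and the neutrophil genes S100a8 and S100a9 were listed at 0 throughout. Transcripts under 600 bases held at most 3.31% of TPM in any library, and a listed 0 is not read as absence of a cell type. The part of other cells in the region differences of the 8 genes was not tested. In bulk RNA, fewer cells of a type and less RNA per cell cannot be told apart.

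The enzymes around the 8 genes were read from 7 lists of 74 genes, of which 51 passed the filter. In the mean ligand difference 12 of 51 changed, 4 higher and 8 lower under IL-34, and in the mean region difference 20 of 51 changed, 10 higher and 10 lower in cerebellum (limma, adjusted over all 12419 genes). Of all tested genes 13.4% changed with ligand and 20.1% with region. The lists were chosen with earlier results of these data known, so nothing is read from how many of their genes changed. The same scaling that shifted all genes gave 10 higher and 7 lower for the ligand. None changed in the region-by-ligand difference (0.145% of all tested genes did), with 6 at an unadjusted p under 0.05.

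The glycosphingolipid list holds the steps on either side of ST3GAL5, and 6 of its 10 genes were tested. Between regions 5 of 6 changed (20.1% of all tested genes did), 2 higher and 3 lower in cerebellum, with a median of -0.19 against 0.01 for all genes. B4galnt1, the GM2/GD2 synthase that takes gangliosides past GM3, was higher in cerebellum by 0.40 ± 0.034 (adjusted p = 2.02e-05). It averaged 79.8 ± 1.49 TPM in cerebellum and 61.0 ± 1.16 TPM in forebrain under IL-34, and 86.0 ± 0.993 TPM in cerebellum and 64.4 ± 2.86 TPM in forebrain under CSF-1 (SD, n = 3 each). Ugcg, the glucosylceramide synthase that begins the chain, was lower in cerebellum, with a difference of -0.28 ± 0.044 (adjusted p = 0.00161). B3galnt1, the globoside synthase of the globo branch, was lower too, at -0.30 ± 0.041 (adjusted p = 0.000517). The remaining pair, B4galt5 at -0.26 and B4galt6 at 0.17, are lactosylceramide synthases and were named after their values were seen. The enzyme after St3gal5 and the enzyme at the start of the chain therefore differed between regions in opposite directions.

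Between ligands 1 of the 6 changed (13.4% of all tested genes did), and the list's median was -0.09 against -0.07 for all genes. B4galt6 was lower under IL-34, at -0.23 ± 0.052 (adjusted p = 0.0153). B4galnt1 had a ligand difference of -0.09 ± 0.034 and Ugcg of -0.14 ± 0.044, and neither passed the threshold. St3gal5, at -0.59 ± 0.048 for the ligand and -0.70 ± 0.048 for the region, is set beside them as a description.

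**Figure D4:**
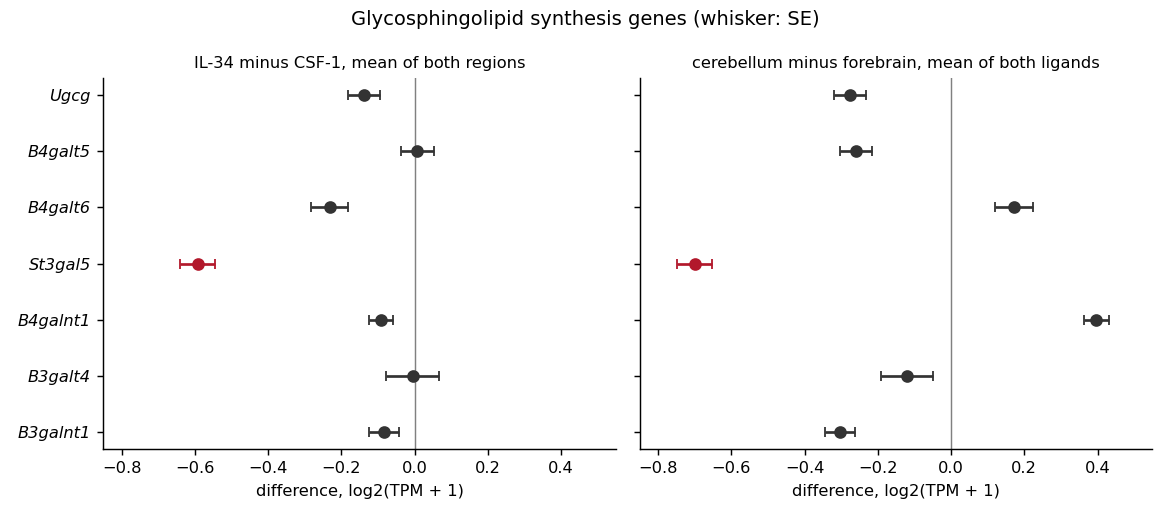
Mean ligand and mean region differences, log2(TPM + 1), of St3gal5 (red) and the 6 tested genes of the glycosphingolipid list (black), ordered along the pathway from Ugcg down. Whiskers are SE. In the region panel B4galnt1 lies at 0.40, to the right of 0, and St3gal5 at -0.70, to the left.

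Of 12 other sialyltransferases 2 were tested, and the other 10 stayed under 1 TPM in all 12 libraries (highest 0.912 TPM, for St8sia2, the second polysialyltransferase). St8sia1, the GD3 synthase that extends GM3, was among the 10. St6galnac4, which adds alpha-2,6 sialic acid to O-glycans, was lower under IL-34 by the mean ligand difference of -0.24 ± 0.054 (adjusted p = 0.015), but under median-of-ratios scaling it was -0.17 with an adjusted p = 0.0735. St6galnac6, which makes alpha-series gangliosides, differed by 0.15 ± 0.099 between ligands and did not pass.

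Among enzymes that build the acceptor chains, 4 of 11 changed with ligand, where 13.4% of all tested genes did. All 4 were lower under IL-34, and the median was -0.12 against -0.07 for all genes. Gcnt1, the core 2 branching enzyme of O-glycans, averaged 43.5 ± 2.23 TPM under IL-34 and 76.1 ± 4.90 TPM under CSF-1 in cerebellum, and 60.9 ± 2.33 TPM under IL-34 and 79.1 ± 5.88 TPM under CSF-1 in forebrain. Its ligand difference was -0.58 ± 0.05 (adjusted p = 9.89e-05), which with the most abundant transcript alone was -0.17 and did not pass (adjusted p = 0.558). The N-glycan branching enzymes Mgat5, at -0.35 ± 0.059 (adjusted p = 0.00434), and Mgat2, at -0.23 ± 0.049 (adjusted p = 0.0125), were lower as well. The fourth, C1galt1, the core 1 synthase, was at -0.30 and was named after its value was seen. With region 3 of 11 changed, where 20.1% of all tested genes did. Gcnt1 was lower in cerebellum, at -0.26 ± 0.05 (adjusted p = 0.00422, and 0.317 with the most abundant transcript alone), and B4galt3 and Mgat4b were higher, at 0.22 and 0.17. Both higher calls were lost with transcripts of 1000 bases or more and trends removed, and with the most abundant transcript alone (adjusted p = 0.844 for B4galt3 and 0.093 for Mgat4b). That of B4galt3 was also lost with transcripts of 1000 bases or more without trends removed (adjusted p = 0.0983), and that of Mgat4b without cerebellum CSF-1 replicate 2 (adjusted p = 0.0518).

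The Siglec list had 8 of 13 genes tested. With region 5 of 8 changed (20.1% of all tested genes did), 2 higher and 3 lower in cerebellum. Siglec1, the macrophage receptor sialoadhesin, averaged 39.9 ± 7.09 TPM in cerebellum and 88.2 ± 8.12 TPM in forebrain under IL-34, and 66.2 ± 2.08 TPM in cerebellum and 97.7 ± 20.5 TPM in forebrain under CSF-1. Its mean region difference was -0.83 ± 0.11 (adjusted p = 0.000359). The border macrophage marker Mrc1 averaged 25.5 TPM in cerebellum and 35.3 TPM in forebrain under IL-34. Under CSF-1 it averaged 29.7 TPM in cerebellum and 37.8 TPM in forebrain. F13a1 lay lower in cerebellum too, as did Cd163 and Lyve1 at levels under 1 TPM. Of that list Pf4 alone lay higher there (106 against 17.3 TPM under IL-34, 41.8 against 22.7 TPM under CSF-1). The part of border macrophages in the Siglec1 difference was not tested. Siglece, an inhibitory receptor, was at -0.85 ± 0.19 (adjusted p = 0.0112) between regions. Cd33 was at -0.30 ± 0.065 (adjusted p = 0.00953), a call lost with transcripts of 1000 bases or more, at -0.07, and with the most abundant transcript alone, at -0.09. Named after their values were seen, the 2 genes higher in cerebellum were Cd22, at 0.33, and the phosphatase gene Ptpn6, at 0.18.

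With ligand 3 of the 8 Siglec list genes changed, where 13.4% of all tested genes did. Cd33 was higher under IL-34, at 0.32 ± 0.065 (adjusted p = 0.011), and so was Cd22, the receptor of alpha-2,6 sialic acid, at 0.33 ± 0.085 (adjusted p = 0.0279). Siglec1 was lower, at -0.43 ± 0.11 (adjusted p = 0.0251). The Cd22 call was lost on leaving out cerebellum CSF-1 replicate 1 or 3, forebrain IL-34 replicate 2 or 3, or forebrain CSF-1 replicate 3, with adjusted p up to 0.0659, and with the most abundant transcript alone (adjusted p = 0.242). The Siglec1 call was lost on leaving out cerebellum IL-34 replicate 2, cerebellum CSF-1 replicate 1 or 2, forebrain IL-34 replicate 2 or 3, or forebrain CSF-1 replicate 2 or 3, with adjusted p up to 0.0625. Siglech, used as a marker of mouse microglia in tissue, reached at most 0.427 TPM in any library. Tyrobp, which encodes the adaptor of activating Siglecs, was listed at 0 in at least 1 library of every group but cerebellum IL-34. Within those same groups it reached 1088 TPM in cerebellum under CSF-1. In forebrain it reached 649 TPM under IL-34 and 1007 TPM under CSF-1. A listed 0 therefore does not show that the cells lacked Tyrobp. The part of short-transcript recovery in these values was not tested.

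Polysialic acid has few known carriers, and 3 of the 4 listed were tested. Cadm1, an adhesion molecule, was higher in cerebellum by 0.36 ± 0.035 (adjusted p = 5.89e-05), with 340 ± 6.96 TPM in cerebellum and 266 ± 15.7 TPM in forebrain under IL-34. Nrp2, a semaphorin co-receptor polysialylated by ST8SIA4, was lower under IL-34, at -0.35 ± 0.065 (adjusted p = 0.00708). Its region difference of 0.21 ± 0.065 passed narrowly (adjusted p = 0.043) and was lost on leaving out any library but cerebellum IL-34 replicate 2, forebrain IL-34 replicate 1 or forebrain CSF-1 replicate 3, with adjusted p up to 0.0971. Ncam1, the main carrier in neural tissue, was lower in cerebellum at a level near 1 TPM, and was named after its value was seen.

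Of 11 supply genes 0 changed with ligand, with 2 at an unadjusted p under 0.05, where 13.4% of all tested genes changed. With region 2 changed, where 20.1% of all did. Cmas, the CMP-sialic acid synthetase, was lower in cerebellum, at -0.19 ± 0.046 (adjusted p = 0.0136). So was the sialic acid lyase Npl, at -0.18 ± 0.049 (adjusted p = 0.0229). The Npl call was lost with trends removed and on leaving out replicate 1 of cerebellum IL-34, cerebellum CSF-1 or forebrain CSF-1 (adjusted p up to 0.0539). Of 10 tested genes of sialidases and ganglioside breakdown, 2 changed with ligand and 2 with region, all higher under IL-34 or in cerebellum. These counts stand beside the same 13.4% and 20.1% of all tested genes. Hexa, a subunit of the hexosaminidase that degrades GM2, was higher under IL-34 by 0.15 ± 0.033 (adjusted p = 0.0134). Ctsa, which protects lysosomal sialidase, passed barely in both, at 0.17 and 0.16 (adjusted p = 0.0498 and 0.0408), and each call was lost on leaving out any of 9 libraries. The ligand call held without cerebellum IL-34 replicate 1, forebrain IL-34 replicate 1 or forebrain CSF-1 replicate 2, and the region call without cerebellum IL-34 replicate 1, cerebellum CSF-1 replicate 1 or forebrain CSF-1 replicate 2. Over the other libraries the adjusted p reached 0.118 for the ligand and 0.0965 for the region.

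For the 5 genes whose group means spanned at least 0.5 on the log2 scale, the tested genes with the most similar profile were found by the root mean square difference of log2(TPM + 1) over the 12 libraries, each gene centred on its own mean. The candidates were 8812 genes with a mean of at least 5 TPM. Nearest to St3gal5 were Raet1d (0.119), Id1 (0.124), Rnase4 (0.132), Alox5ap (0.139) and Klf2 (0.144), while St3gal5 itself departed from its own mean by 0.464. Raet1d averaged 12.96 TPM in cerebellum under IL-34 and 20.2 TPM under CSF-1, and 22.8 TPM in forebrain under IL-34 and 35.4 TPM under CSF-1. Alox5ap, which encodes the 5-lipoxygenase activating protein, averaged 62.5 TPM in cerebellum under IL-34 and 85.1 TPM under CSF-1, and 97.3 TPM in forebrain under IL-34 and 132 TPM under CSF-1. All 5 had their lowest group mean in cerebellum under IL-34 and their highest in forebrain under CSF-1. Likeness is a description and says nothing of shared control.

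**Figure D5:**
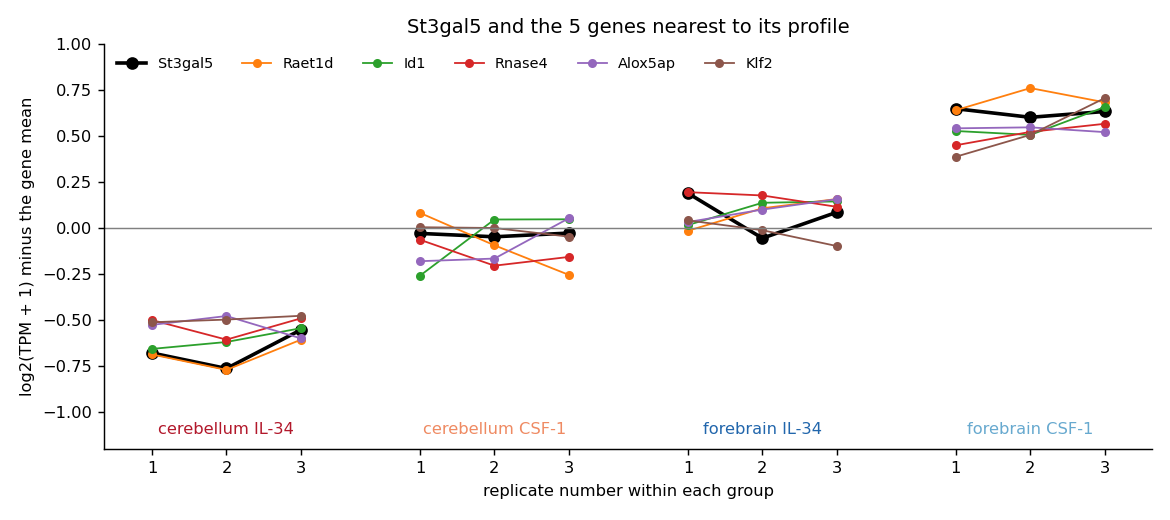
Log2(TPM + 1) of St3gal5 (black) and its 5 nearest genes, each minus its own mean, in the 12 libraries; the x axis gives the replicate number within each group. The 6 profiles lie lowest in cerebellum under IL-34 and highest in forebrain under CSF-1, with the 2 other groups between them. Those 2 groups overlap for all but Rnase4.

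The nearest gene was Fnbp4 for St3gal2 (0.134), Wdr77 for St3gal3 (0.105), Peak1 for St3gal6 (0.147) and Slc29a3 for St8sia4 (0.0756). These compare with each member's own departure from its mean of 0.342, 0.271, 0.359 and 0.201 in the same order. Slc29a3, a lysosomal nucleoside transporter, averaged 38.9 TPM in cerebellum under IL-34 and 41.6 TPM under CSF-1, and 34.4 TPM in forebrain under IL-34 and 30.4 TPM under CSF-1. Its ligand order turned between regions, as that of St8sia4 did.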

How the data were processed

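RNA of 12 libraries of cultured mouse microglia was analysed, 3 in each of 4 groups by region and ligand. The SMART-Seq v4 kit, named in the labels' protocols, does not mark strand; the extraction protocol speaks of human tissue while every other label is mouse. The authors deposited TPM for each transcript; kallisto 0.43.0 and GRCm38 are named in the submitters' processing notes, while the annotation release and any correction of bias were not stated. TPM was summed per gene over 115879 transcripts, of which 98.6% were found in GENCODE M21. No pair of the 66 library pairs was identical. Depth cannot be read from TPM, so no counting interval is given, and genes with similar copies may share reads.

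limma 3.58.1 in R 4.3.3 was fitted on log2(TPM + 1), which understates the change of low genes, for all 12419 genes that reached 1 TPM in 3 or more libraries, with 4 group means, a variance trend and 8 residual degrees of freedom. Tests were two-sided with Benjamini-Hochberg adjustment over all of them, at 0.05, and were tested on simulated data. The members and lists were chosen with earlier results of these data known. Named genes are, per list and contrast, up to 3 called genes with the smallest p and at least 5 TPM in the higher group. 1 gene that the rule names is not reported here. Values of the 8 genes are descriptions. Same-numbered libraries did not deviate together as a set (18 pairs, r from -0.454 to 0.458, 5 over 0.1). Numbers were therefore not used to pair them. The 36 pairs of unlike number ran from -0.455 to 0.569, with 9 over 0.1. Cerebellum CSF-1 replicate 1, forebrain IL-34 replicate 1 and forebrain CSF-1 replicate 3 deviated alike, with r between 0.458 and 0.569. The fit has no term for this, and its source was not tested. Alternatives covered the pseudocount, filter, scaling, variance trend, block, groups in the fit, transcript length, trends of length and base composition, and each library left out. Wherever trends were removed, only transcripts of 1000 bases or more were used.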

Additional observations from a re-analysis of the deposited data

Results flagged for a closer look

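St8sia4 stood out because its ligand difference had opposite directions in the 2 regions: all cerebellar libraries under IL-34 lay below those under CSF-1, and all forebrain libraries under IL-34 lay above those under CSF-1. The region-by-ligand difference was -0.45, and -0.24 with trends of length and base composition removed. It did not pass the adjusted threshold in the limma fit of all genes, in which none of the 8 genes passed for this difference, and St8sia4 was among the genes chosen from these data. The cerebellar side was -0.17 as deposited, 0.04 with the trends removed and -0.06 under median-of-ratios scaling. Groups of 3 libraries were not searched for single libraries far from the others.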

How the results depend on the processing

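All 84 St3gal5 values with a library left out moved by less than the spread between replicates, as did all 588 of the other members. Many could hardly move, since a difference within a region or ligand does not use the remaining groups. Nothing is therefore read from these totals. The mean ligand difference of St3gal5 ranged from -0.62 to -0.56 and its mean region difference from -0.73 to -0.67. All 36 counts of list genes stayed within 1.5 times, but those of the region-by-ligand difference were 0 throughout. The others ranged from 8 to 14 for the ligand and from 15 to 19 for the region, against 12 and 20. The St3gal5 ligand difference in cerebellum was -0.52 under median-of-ratios scaling and -0.53 with trends removed, against -0.63. With the most abundant transcript alone the forebrain ligand difference was -0.65, the region difference under IL-34 was -0.61 and the region-by-ligand difference turned to 0.021; St3gal5 levels were then 57.0, 89.5, 88.4 and 139 TPM in cerebellum IL-34, cerebellum CSF-1, forebrain IL-34 and forebrain CSF-1. List genes called for the ligand numbered 20 with trends removed (12 higher, 8 lower), against 12. Signs turned without a test for St3gal1 (0.096) and St8sia4 (0.044) in the cerebellar ligand difference, for St3gal3 in forebrain (0.068) and for St3gal6 in the region-by-ligand difference (0.00016), all with trends removed; for the St3gal2 cerebellar ligand difference (-0.13 with transcripts of 1000 bases or more, -0.16 with the most abundant transcript) and region-by-ligand difference (-0.072 with the most abundant transcript); and for St3gal3 in forebrain (0.21 with the most abundant transcript). Only turns with a shift of at least the spread between replicates are listed. Smaller shifts turned signs too, such as the St3gal1 cerebellar ligand difference, 0.023 under median-of-ratios scaling against -0.074. The cause was not tested.

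With the replicate number as a replicate block, 1225 genes passed for the ligand, 2163 for the region and 16 for the interaction, against 1667, 2502 and 18, and the list genes called were 11, 19 and 0. All genes called for the ligand ranged from 929 (without forebrain IL-34 replicate 2) to 2088 with a library left out and were 2725 with transcripts of 1000 bases or more and 1106 with no filter; the interaction ranged from 0 to 110, with 110 without cerebellum IL-34 replicate 3. The block also ended the calls of Nrp2 for the region (adjusted p = 0.0761) and Siglec1 for the ligand (adjusted p = 0.051). With no filter on low values, limma no longer called Cd22 (adjusted p = 0.0605), Siglec1 (0.0706) or Ctsa (0.137) for the ligand, or Nrp2 (0.0965) and Ctsa (0.113) for the region. None of the list genes named by the rule changed direction in the alternatives run.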
